A study of Mus musculus with 6 samples.

Results

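The genes described here are those of Müller glia, of retinal astrocytes and of gliosis, the reaction of both cell types to injury. They were chosen by name, 38 in all, and each was read from the brightest transcript cluster of the array that carried its symbol alone, where a transcript cluster is a group of probes along the exons of a putative transcript. Of the 38 genes, 32 were measured and all 32 lay above the filter on low signals, among 17463 genes measured in the series. Slc1a3, Prdx6, C3 and Spp1 had no cluster of their own name used here, and Fgf2 and Cp lay only on clusters shared with another gene.

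RNA came from mouse retinas dissected at postnatal day 0 and floated on membrane filters for 7 days as explants in medium with serum. One group was Sall3 knockout and the other Sall3 wild-type, with 3 samples in each, and both were of strain C57BL/6 and of mixed sex. Each sample pooled the RNA of 3 retinas and was hybridised to its own array. The labels name a knockout without the allele or a Cre driver, and they do not say whether samples came from separate litters or cultures, so a p-value here reflects only how far these samples spread, which may be technical.

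Müller glia are the main glial cells of the retina and span its whole depth. They take up glutamate and turn it into glutamine, buffer potassium and water, and take part in recycling the chromophore of cones. They arise late from the progenitors that also give rods and bipolar cells. Astrocytes migrate in from the optic nerve head and lie along the inner surface with the vessels. When the retina is damaged or cut, both cell types raise intermediate filament proteins and secrete acute-phase and matrix proteins, and an explanted retina is such an injured tissue. Sall3 encodes a zinc finger transcription factor, and the title of the series concerns cones and horizontal cells, so the glial genes stand here for other cells of the same tissue.

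Over the whole table no cluster separated the genotypes after adjustment (0 of 75632, or 0%; smallest limma adjusted p = 0.539, or 0.0806 without wild-type 3 and 0.145 with 1 row per gene), and 4968, or 6.57%, had an unadjusted p under 0.05. Correlations between arrays ran from 0.954 to 0.977 within a genotype and from 0.94 to 0.97 between genotypes. On the axis of largest variance knockout 1 lay at 98.5 and wild-type 3 at -62.5, apart from the other 4 arrays at -12 to -2.81. Values without an array are therefore given where they moved much, most of them without knockout 1. Sall3 itself read 6.24, 6.05 and 6.13 in the knockout samples and 6.21, 6.36 and 6.33 in wild-type (log2 signal), a difference of -0.16 (SE 0.10; limma adjusted p = 0.877). Whether its probes lie inside the deleted part is not known, so this does not check the labels.

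The tissue carried the signals of neural retina. The rod transducin subunit Gnat1 read between 11.24 and 11.38 on the log2 scale in all 6 arrays, and the rod transcription factor Nrl between 9.77 and 9.98. Of 8 genes of pigment epithelium and pigment cells, Rpe65 and Tyr lay below the filter on low signals and 6 passed it. Among those 6 Dct, an enzyme of melanin synthesis, read 8.15 to 8.47 and the others between 4.64 and 6.17. Myelin genes, whose cells the mouse retina lacks, read 5.14 to 5.49 for Mog, 5.10 to 5.21 for Mag, 3.99 to 4.23 for Mobp and 7.42 to 7.59 for Mbp. The table gives no detection call, so how much of a low signal is background is unknown, and background makes a difference in log2 signal smaller than the difference in RNA.

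No glial or gliosis gene passed the test between the genotypes. None of the 32 genes passed the adjusted threshold of 0.05, beside 0% of all genes (limma adjusted p from 0.89 to 1), and none had an unadjusted p under 0.05, beside 1.6% of all genes. The 32 differences, knockout minus wild-type, had a median of -0.01 on the log2 scale and ran from -0.27 for Mt1 to 0.14 for Apoe and Crym; the median over all 17463 genes was also -0.01. Of the 32 genes 19 had lower means in knockout, beside 54.7% of all genes, but 13 as deposited, beside 42.5%, and 13 with each array centred on its median, beside 41.7%, so the balance of directions follows the scaling. In 23 of the 32 genes the difference was 0.10 or less in size. The sizes that the data leave possible can be read from the 95% intervals of single genes, which were not adjusted for the number of genes. All 32 intervals spanned 0, and 25 of them lay within 0.5 log2 units on either side. The interval that reached lowest ended at -0.80, or 1.74-fold lower, for Mt1, and the one that reached highest at 0.68, or 1.6-fold higher, for Abca8a. In whole-tissue RNA fewer cells of a type and less RNA per cell cannot be told apart.

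**Figure D1:**
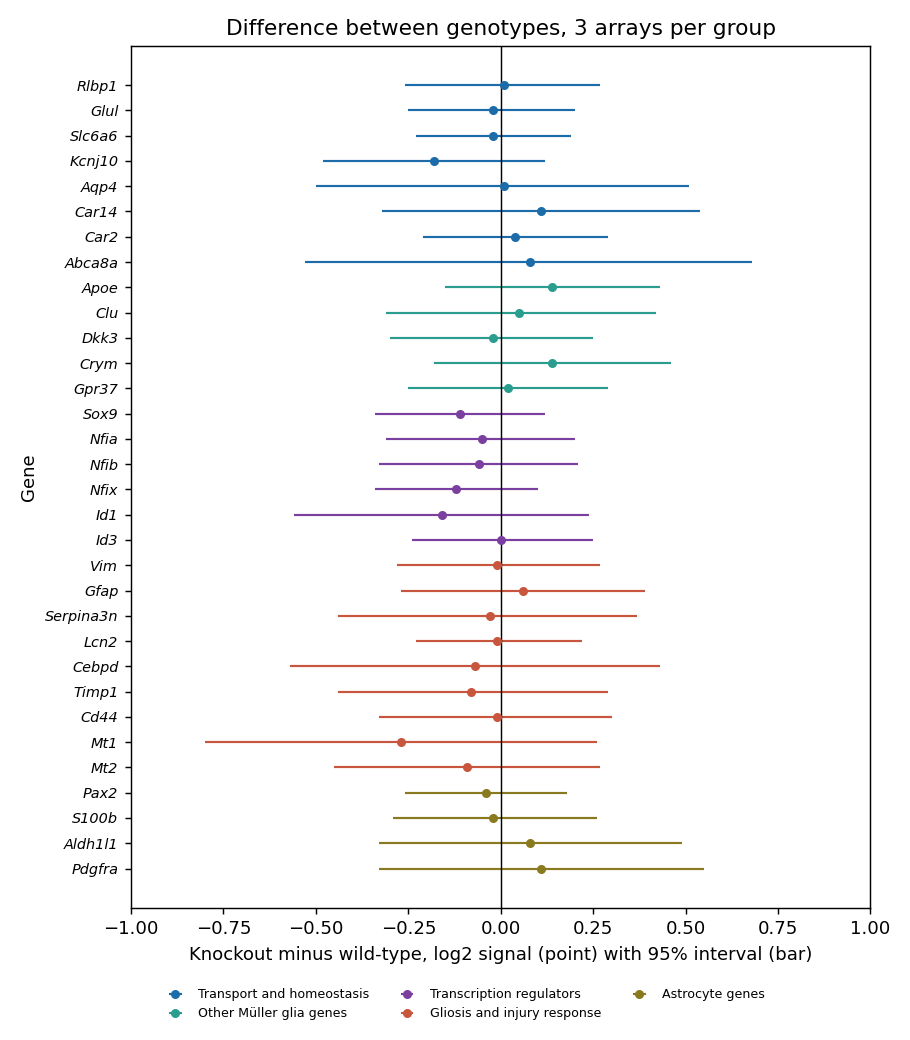
Difference in log2 signal between knockout and wild-type explants for the 32 measured genes, with the 95% interval of each as a bar, coloured by role list. Every bar crosses 0, and the widest are those of Abca8a and Mt1.

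The genes were sorted by role. Transport and homeostasis took 9 genes, of which 8 were measured, and 5 had higher and 3 lower mean values in knockout (median 0.01), or 7 and 1 under the other scalings. Rlbp1, which encodes the retinaldehyde-binding protein CRALBP, read 11.46, 11.30 and 11.21 in the 3 knockout arrays, here and below in the order of their numbers, against 11.32, 11.37 and 11.25 in the 3 wild-type arrays. The groups overlapped, and the difference was 0.01 (SE 0.11). Car2, the gene of cytosolic carbonic anhydrase II, read 11.52, 11.31 and 11.32 in knockout and 11.34, 11.35 and 11.34 in wild-type. Its wild-type values were nearly identical and knockout 1 alone lay above them, which left a difference of 0.04 (SE 0.10).

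Kcnj10 had the smallest p of the transport genes. It encodes Kir4.1, the channel through which Müller glia let potassium out towards the vitreous and the vessels, and it read 8.45, 8.29 and 8.14 in knockout and 8.45, 8.37 and 8.59 in wild-type. Knockout 2 and knockout 3 were the lowest arrays, but knockout 1 lay among wild-type, and the difference was -0.18 (SE 0.12, interval -0.48 to 0.12; limma adjusted p = 0.89), or -0.26 without knockout 1. Its partner in the endfeet, the water channel gene Aqp4, read 7.28, 6.75 and 6.63 in knockout and 6.79, 7.10 and 6.76 in wild-type. The means of 6.89 ± 0.35 and 6.88 ± 0.19 (SD, n = 3) differed by 0.01, and knockout held both the highest and the lowest array. Without knockout 1 the difference was -0.19.

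Car14, a membrane-bound carbonic anhydrase, read 9.65, 9.22 and 9.25 in knockout and 9.32, 9.45 and 9.02 in wild-type, a difference of 0.11 (SE 0.18). Of its dimmer clusters, one stood at 0.07 and the other at -0.37 (SE 0.17; limma unadjusted p = 0.0709), opposite in sign. Abca8a, a lipid transporter of the ABC family, had the largest spread of all 32 genes, with 8.31, 7.56 and 7.41 in knockout and 7.75, 7.68 and 7.63 in wild-type. Knockout 1 was the highest array and the other knockout arrays were the lowest, around a mean difference of 0.08 (SE 0.25) that was -0.20 without knockout 1. Glul, the glutamine synthetase gene that defines mature Müller glia, stood at -0.02 (SE 0.09) with all arrays between 6.98 and 7.11, and its dimmer cluster at 0.22 (SE 0.16). The taurine transporter gene Slc6a6 varied least of the transport genes, between 9.37 and 9.42, with a difference of -0.02.

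Other genes typical of Müller glia did not pass the test either. Of 5 measured, 4 had higher and 1 lower mean values in knockout (median 0.05), and all 5 were higher under the other scalings. Crym encodes mu-crystallin, a cytosolic protein that binds thyroid hormone, and read 11.19, 10.88 and 10.83 in knockout against 10.86, 10.86 and 10.76 in wild-type. Its difference of 0.14 (SE 0.13) came down to 0.03 without knockout 1. Apoe, the lipid carrier that Müller glia secrete and that microglia also make, read 9.37, 9.25 and 9.27 in knockout against 9.23, 9.27 and 8.97 in wild-type. Here wild-type 3 was the low array, and the difference of 0.14 (SE 0.12) was 0.05 in its absence. Gpr37, an orphan-family receptor linked to prosaposin, read 11.11, 10.90 and 10.90 in knockout and 11.02, 10.96 and 10.88 in wild-type. The remaining differences were 0.05 (SE 0.15) for the extracellular chaperone clusterin, Clu, and -0.02 (SE 0.11) for Dkk3, a secreted protein of the Dickkopf family. In all 5 of these genes knockout 1 was the highest of the 6 arrays.

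The 6 transcription regulators had the lowest median of the 5 role lists, -0.08, or -0.04 under the other scalings, and 5 of 6 had lower means in knockout under each. Nuclear factor I proteins are needed for late progenitors of the mouse retina to leave the cell cycle and form Müller glia and bipolar cells. Nfix was the only gene of the 32 whose highest knockout array was under its lowest wild-type array, a pattern seen in 11.2% of all genes, so its count is below the background. It read 9.21, 9.12 and 9.10 in knockout against 9.25, 9.23 and 9.29 in wild-type, a difference of -0.12 (SE 0.09, interval -0.34 to 0.10; limma adjusted p = 0.905). With the values as deposited, or with each array centred on its median, its groups overlapped, and the pattern was seen in 3.75% and 5.36% of all genes. No gene of the 32 showed the reverse pattern, beside 1.7% of all genes. Apoe did under both of those scalings, beside 4.6% as deposited and 2.44% after median centring.

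Sox9, which maintains progenitors and then Müller glia, read 8.80, 8.66 and 8.64 in knockout and 8.80, 8.83 and 8.80 in wild-type. The wild-type values were close together, knockout 1 lay with them and the other knockout arrays lay below, at a difference of -0.11 (SE 0.09), or -0.16 without knockout 1. Id1, an inhibitor of basic helix-loop-helix factors and a target of BMP signalling, is given here after its values were seen. It read 6.83, 6.25 and 6.45 in knockout against 6.63, 6.73 and 6.66 in wild-type, a difference of -0.16 (SE 0.16), which was -0.32 without knockout 1 and -0.03 without knockout 2. The related Id3 stood at 0.00 (SE 0.10), Nfia at -0.05 (SE 0.10) and Nfib at -0.06 (SE 0.11); a dimmer cluster of Nfib stood at 0.11.

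Of 13 genes of gliosis and injury response 9 were measured, and 1 had a higher and 8 a lower mean in knockout, with a median of -0.03, or 3 and 6 under the other scalings. Gfap is the intermediate filament gene whose rise in Müller glia is the usual sign of gliosis, and it was added to those given in full after its values were seen. It read 7.41, 7.37 and 7.20 in knockout and 7.26, 7.46 and 7.08 in wild-type. The groups overlapped fully, with means of 7.33 ± 0.11 and 7.27 ± 0.19 (SD, n = 3), a difference of 0.06 and an interval of -0.27 to 0.39 (limma adjusted p = 0.973). Vim, the vimentin gene of all Müller glia and progenitors, read 10.74, 10.66 and 10.60 in knockout against 10.75, 10.75 and 10.52 in wild-type, a difference of -0.01 (SE 0.11).

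Serpina3n, a secreted protease inhibitor of reactive astrocytes, read 8.03, 7.72 and 7.67 in knockout against 7.74, 8.10 and 7.69 in wild-type. One array of each group was high, knockout 1 and wild-type 2, and the difference was -0.03 (SE 0.16). Cebpd, an acute-phase transcription factor, read 6.37, 5.88 and 5.63 in knockout against 5.92, 6.04 and 6.13 in wild-type. Knockout again held both the highest and the lowest array, around a difference of -0.07 (SE 0.20), which was -0.28 without knockout 1, and a dimmer cluster stood at 0.17 (SE 0.29). The iron-binding lipocalin gene Lcn2 varied only between 4.89 and 4.99, with a difference of -0.01 (SE 0.09). Timp1, an inhibitor of matrix metalloproteinases, stood at -0.08 (SE 0.15), and the hyaluronan receptor gene Cd44 at -0.01 (SE 0.13).

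The metallothionein genes Mt1 and Mt2 encode small zinc- and copper-binding proteins, lie next to each other on the same chromosome and are switched on together by metals and glucocorticoids in many tissues. Their upstream sequences, from RefSeq on GRCm38.p6, are shown because they are the pair of members with a known shared switch. Each run is the 250 bases before the start of the gene, 5′ to 3′ on the gene's strand, and capitals mark the core of the metal response element, TGCACNC or TGCGCNC on either strand.
Mt1, chr8:94178839-94179088, plus strand: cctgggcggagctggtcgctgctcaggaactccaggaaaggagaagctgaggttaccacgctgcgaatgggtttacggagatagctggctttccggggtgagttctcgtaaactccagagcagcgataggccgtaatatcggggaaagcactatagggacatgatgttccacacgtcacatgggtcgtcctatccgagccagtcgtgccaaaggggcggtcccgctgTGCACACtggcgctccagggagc
Mt2, chr8:94172368-94172617, plus strand: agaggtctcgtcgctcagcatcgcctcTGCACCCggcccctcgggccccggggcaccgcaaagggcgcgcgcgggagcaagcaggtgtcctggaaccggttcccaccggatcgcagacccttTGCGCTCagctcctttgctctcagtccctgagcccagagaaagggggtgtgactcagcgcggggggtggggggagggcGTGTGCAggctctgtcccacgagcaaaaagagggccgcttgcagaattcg
The Mt2 window held 3 copies and the Mt1 window 1, none overlapping another. Bases further upstream or past the listed start were not searched, so these counts do not give the number of elements of either gene. At least 1 copy was present in 21.4% of 32851 promoters of the same length and 3 or more in 1.26%, so a single copy is common.

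The pair took the same order in the knockout arrays and opposite orders in the wild-type arrays. Mt1 read 7.31, 6.99 and 6.63 in knockout and 7.03, 7.21 and 7.49 in wild-type, with the highest value in wild-type 3 and the lowest in knockout 3. Mt2 read 6.34, 6.03 and 5.96 in knockout and 6.32, 6.24 and 6.03 in wild-type, with wild-type 3 among the low arrays; in both genes knockout 1 was the highest and knockout 3 the lowest of the knockout arrays. The differences were -0.27 (SE 0.21, interval -0.80 to 0.26) for Mt1, the lowest of the 32, and -0.09 (SE 0.15) for Mt2. Without wild-type 3 that of Mt1 was -0.15, without knockout 3 it was -0.09 and without knockout 1 it was -0.43.

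The 4 astrocyte genes were all measured, and their median was 0.03. Pdgfra, the receptor through which retinal astrocytes respond to PDGF from ganglion cells, read 6.82, 6.42 and 6.27 in knockout and 6.47, 6.50 and 6.19 in wild-type. Aldh1l1, a folate enzyme used as an astrocyte marker in brain, read 7.31, 6.80 and 6.77 against 6.85, 6.90 and 6.90. In both genes knockout 1 alone lay above wild-type, and the differences were 0.11 (SE 0.18) and 0.08 (SE 0.17), or -0.04 and -0.09 without that array. Pax2, a transcription factor of the astrocyte lineage of the optic nerve head, stood at -0.04 (SE 0.09), and the calcium-binding protein gene S100b at -0.02 (SE 0.11).

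**Figure D2:**
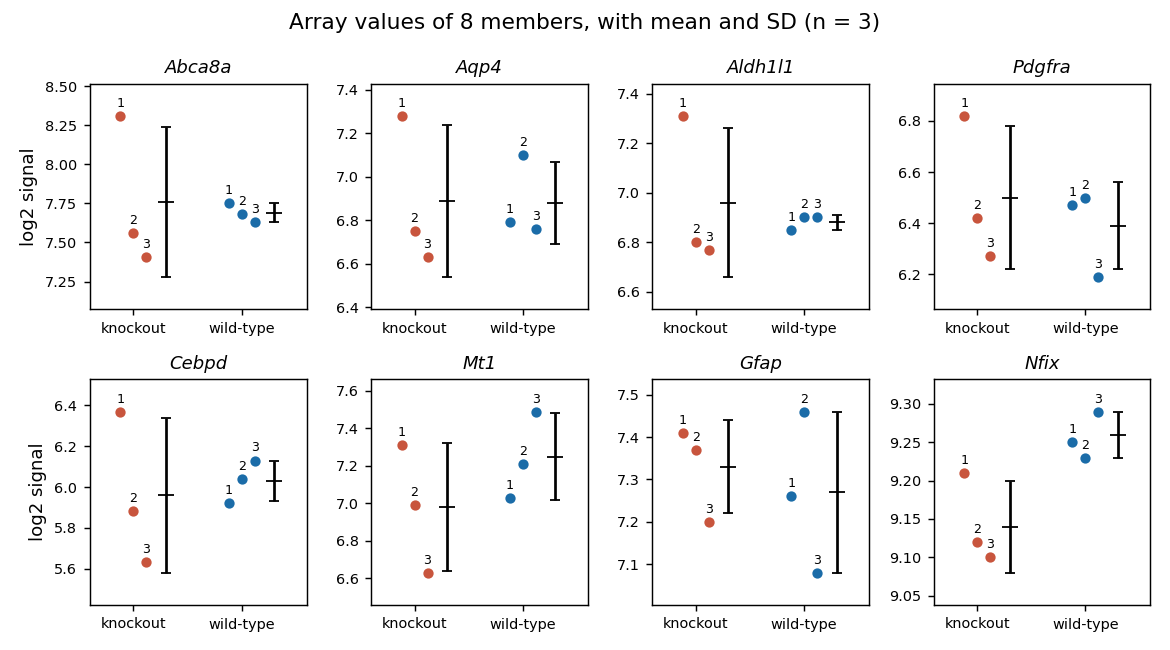
Log2 signal of 8 of the genes in each array, with sample numbers beside the points and the mean and SD of each group (n = 3) as a bar. Knockout 1 is the highest array in Abca8a, Aqp4, Aldh1l1, Pdgfra and Cebpd; only in Nfix do the groups not overlap. Vertical axes do not start at 0 and differ between panels.

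The glial genes shared the position of 1 array. Knockout 1 was the highest of the 6 arrays in 22 of 32 genes, or 68.8%, where it was so in 45.6% of all genes. It lay above the mean of the other 5 arrays in 30 of the 32, or 93.8%, beside 73.8% of all genes. The exceptions were Glul and Slc6a6, and the median excess was 0.19 against 0.07 over all genes. The excess was 0.40 or more in 6 genes, from 0.40 for Car14 to 0.70 for Abca8a, with Aqp4, Aldh1l1, Pdgfra and Cebpd between them. As deposited, knockout 1 was highest in 22 genes, beside 46.1% of all genes, and with each array centred on its median in 30, beside 63.9%. Lists of other cells shared this position in part, with a median excess of 0.22 in the microglia genes. Knockout 1 lay above the mean of the others in 100% of proliferation, 87.5% of endothelial, 83.3% of pigment epithelium and 80% of microglia genes. The share was 75% in oligodendrocyte, 60% in fibroblast and 0% in rod genes. The position is therefore not shown to be particular to glial genes. The members were chosen by name and no test was made of the excess in knockout 1.

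Relative to the wild-type mean, the median over the 32 genes was 0.15 in knockout 1, -0.07 in knockout 2 and -0.12 in knockout 3, and 0.00, 0.03 and -0.04 in wild-type 1, 2 and 3. Over all genes the same medians were 0.06, -0.05 and -0.04 for the knockout arrays, and for wild-type they were 0.00, 0.04 and -0.03. Spread was larger in knockout than in wild-type in 25 of the 32 genes, a count whose share over all genes was not taken. Among the role lists, knockout 1 stood highest in the astrocyte genes at 0.29 and lowest in the transcription regulators at 0.08. Single astrocyte genes stood at 0.02 for Pax2, 0.15 for S100b, 0.42 for Aldh1l1 and 0.43 for Pdgfra in that array. The 7 further astrocyte genes, described below, had a median of only 0.05 in knockout 1, beside 0.06 over all genes. At the other end, knockout 3 was the lowest array in 18 of the 32 genes, or 56.2%, beside 20.7% of all genes, and wild-type 3 in 8, or 25%, beside 32.2%. Knockout 3 was also lowest in 50% of the microglia genes and 50% of the further gliosis genes, but in 0% of the pigment epithelium genes. These lowest arrays were counted with quantile scaling only.

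**Figure D3:**
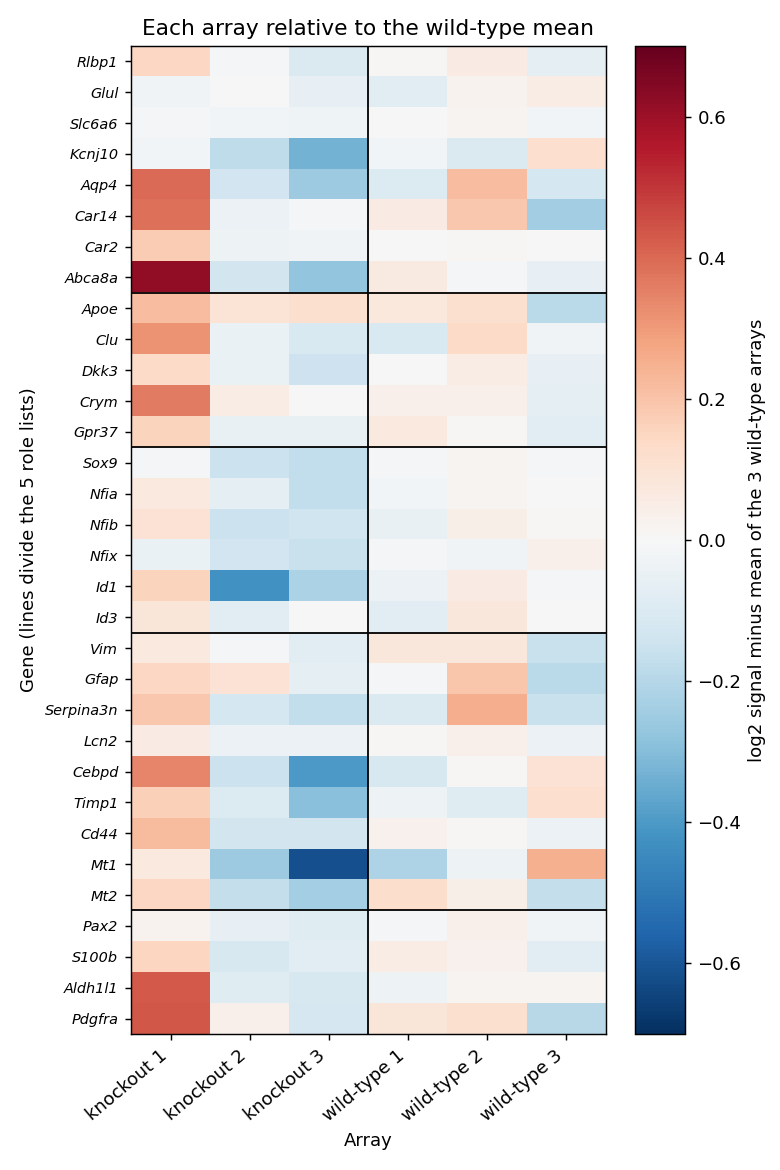
Each array's log2 signal minus the mean of the 3 wild-type arrays, for the 32 genes in rows, with red for higher and blue for lower. The knockout 1 column is red in most rows, while knockout 2 and knockout 3 are mostly pale or blue.

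Abca8a and Aldh1l1 had the largest excess in knockout 1 among the 22 genes whose promoter was used. Aqp4, at 0.48 against 0.46 for Aldh1l1, was not among these 22. The upstream 250 bases of Abca8a and Aldh1l1 on GRCm38.p6 are shown with the half-site of nuclear factor I proteins in capitals. It is TTGGC on either strand, and was taken since 3 of the regulators above belong to that family.
Abca8a, chr11:110095938-110096187, minus strand: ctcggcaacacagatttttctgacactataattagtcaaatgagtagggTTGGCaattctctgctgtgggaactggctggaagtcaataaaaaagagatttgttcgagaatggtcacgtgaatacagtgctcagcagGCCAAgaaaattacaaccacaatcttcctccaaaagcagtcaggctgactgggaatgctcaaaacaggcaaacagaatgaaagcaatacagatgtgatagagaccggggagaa
Aldh1l1, chr6:90550543-90550792, plus strand: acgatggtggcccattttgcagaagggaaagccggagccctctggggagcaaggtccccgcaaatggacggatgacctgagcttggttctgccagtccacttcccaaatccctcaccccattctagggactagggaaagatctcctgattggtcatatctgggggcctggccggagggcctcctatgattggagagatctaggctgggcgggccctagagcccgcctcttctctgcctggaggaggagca
The Abca8a window held 2 half-sites, 1 on each strand, and the Aldh1l1 window 0. Of the 22 members whose promoter was used, 11 held at least 1, and so did 41.5% of all promoters, so the members lay near the background. The full palindrome, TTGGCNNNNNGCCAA, was found in none of the 22 and in 12 of all 32851. A match is only a run of letters.

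Leaving out knockout 1 shifted the glial genes to lower values in knockout. The mean difference was then below 0 in 29 of 32 genes, or 90.6%, beside 73% of all genes, and the median was -0.10, against -0.05 over all genes. Both remaining knockout arrays were under every wild-type array in 17 of the 32, or 53.1%, beside 32.9% of all genes, and above them in none, beside 2.67%. Of the 6 transcription regulators 5 were in this position, namely Sox9, Nfia, Nfib, Nfix and Id1. No gene passed the adjusted threshold without knockout 1 (smallest limma adjusted p among the 32 = 0.645), and Id1 alone had an unadjusted p under 0.05, at 0.0339. The count of 17 depends on the scaling. It was 7, or 21.9%, with the values as deposited, beside 9.29% of all genes, and 10, or 31.2%, with each array centred on its median, beside 21.2%. Under both of those scalings Sox9, Nfib, Nfix and Id1 kept this position and Nfia lost it. The dimmer cluster of Nfib, with a mean of 6.93 against 7.09, did not share it. With quantile scaling it read 6.93 and 6.88 in knockout 2 and knockout 3 against 6.89, 6.75 and 6.97 in wild-type.

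Lists of other cells also moved down when knockout 1 was left out. The difference was then below 0 in 10 of 10 microglia genes (median -0.30, against -0.16 with all arrays), 8 of 8 endothelial genes (median -0.07) and 5 of 5 fibroblast genes (median -0.07). Both remaining knockout arrays lay under every wild-type array in 60%, 62.5% and 80% of these lists, shares above the 53.1% of the glial genes, so the shift is not shown to be particular to glial genes. As deposited these shares were 20%, 12.5% and 20%, and after median centring 60%, 37.5% and 60%. Other lists had lower shares with quantile scaling, at 33.3% of pigment epithelium, 25% of oligodendrocyte and 0% of proliferation genes, beside 32.9% of all genes. Within the glial role lists the share ran from 0% in the other Müller glia genes to 83.3% in the transcription regulators. Of the 5 rod genes 2 were below 0. In 1 of the 5 both knockout arrays lay under every wild-type array, and in 2 above.

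Further genes of the same cells and programmes, which were not among the 38, were read in the same way. Of 48 such genes 45 were measured, and none rose or fell in limma, either after adjustment or at an unadjusted p under 0.05. Their median difference was -0.01. The groups did not overlap, with knockout lower, in 5 of the 45, or 11.1%, beside 11.2% of all genes. As deposited 1 of the 45 was lower without overlap and 1 higher, beside 3.75% and 4.6% of all genes, and after median centring 2 were lower, beside 5.36%. The 5 were Carhsp1, an RNA-binding protein (-0.20, SE 0.11), the cytokine signalling inhibitor Socs3 (-0.24, SE 0.13), its inducer Stat3 (-0.06, SE 0.09), the FGF receptor Fgfr3 (-0.12, SE 0.09) and Sox10 (-0.10, SE 0.09). Sox10 was listed with the further astrocyte genes, and whether astrocytes express it in this tissue was not tested.

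Among 20 further Müller glia genes, all measured, those of smallest p beside Carhsp1 were the fatty acid-binding protein gene Fabp7 at 0.24 (SE 0.25), Sox2 at 0.12 (SE 0.13) and Mfge8, a secreted bridge for phagocytosis, at 0.10 (SE 0.11). Dio2 and Aldoc had larger differences than the latter pair, 0.19 and 0.15, with larger p. Fabp7 read 10.77, 10.39 and 10.49 in knockout against 10.71, 10.42 and 9.82 in wild-type, where wild-type 3 was the low array. Of 20 further gliosis genes 18 were measured, with a median of -0.03, or 0.00 under the other scalings. Socs3, a target of STAT3 signalling, read 6.86, 6.86 and 6.57 in knockout against 6.90, 6.96 and 7.17 in wild-type, and its interval was -0.57 to 0.09 (limma adjusted p = 0.841). Ifitm3 stood at -0.14 (SE 0.13), the galectin gene Lgals3 at -0.13 (SE 0.16) and Bcl3 at -0.07 (SE 0.10). Of 8 further astrocyte genes 7 were measured, with a median of -0.07, and they included Fgf1 at -0.09 (SE 0.11) and the astrocyte and progenitor factor Nr2e1 at -0.07 (SE 0.11). Knockout 1 was the highest array in 29 of the 45, or 64.4%, with a median excess of 0.14. In the 7 further astrocyte genes knockout 1 lay above the mean of the other arrays in 57.1%, beside 73.8% of all genes.

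Markers of other cells were read beside the glial genes, since microglia also make Apoe and Cd44, and vessels and connective tissue also make Timp1, Vim and Pdgfra. Of 10 microglia genes, all measured, 9 had lower means in knockout, or 8 under the other scalings, with array medians of 0.12, -0.21 and -0.26 in knockout 1, 2 and 3 and of -0.06, 0.08 and -0.08 in wild-type 1, 2 and 3. Knockout 1 was the highest array in 4 of the 10, or 40%, beside 45.6% of all genes, and lay above the mean of the other arrays in 8. Cx3cr1 read 8.16, 8.12 and 7.63 in knockout against 8.57, 8.25 and 8.20 in wild-type, a difference of -0.37 (SE 0.19; limma adjusted p = 0.815). Fcrls stood at -0.46 (SE 0.28), Csf1r at -0.19 (SE 0.17) and C1qa at -0.20 (SE 0.19).

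In knockout 1 the array median was 0.05 for 8 endothelial genes, 0.04 for 5 fibroblast genes, 0.07 for 6 pigment epithelium genes, 0.03 for 4 oligodendrocyte genes and 0.10 for 5 proliferation genes. The 5 rod genes went the other way in that array, at -0.05, and knockout 1 lay below the mean of the other arrays in all 5. Cnga1, the rod channel subunit, read 8.94, 9.76 and 9.83 in knockout against 9.56, 8.91 and 8.61 in wild-type, and was low in knockout 1, wild-type 2 and wild-type 3. The part of other cells, of the array and of its scaling in the glial signal of knockout 1 was not tested. Within these lists Kdr, the VEGF receptor gene, stood at -0.07, Esam at -0.10, Tie1 at -0.04 and Cldn5 at -0.05. The collagen genes Col1a1, Col1a2 and Col3a1 stood at -0.06, -0.05 and -0.04, and the proteoglycan gene Dcn at -0.03. The pigment cell gene Dct stood at 0.04, Pmel at -0.04, Ttr at -0.05 and Rdh5 at -0.01. The proliferation genes Top2a, Mki67, Ccna2 and Cdk1 stood at 0.20, -0.04, 0.02 and 0.01, and the rod genes Nrl, Sag and Gnat1 at -0.10, 0.06 and -0.02.

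**Figure D4:**
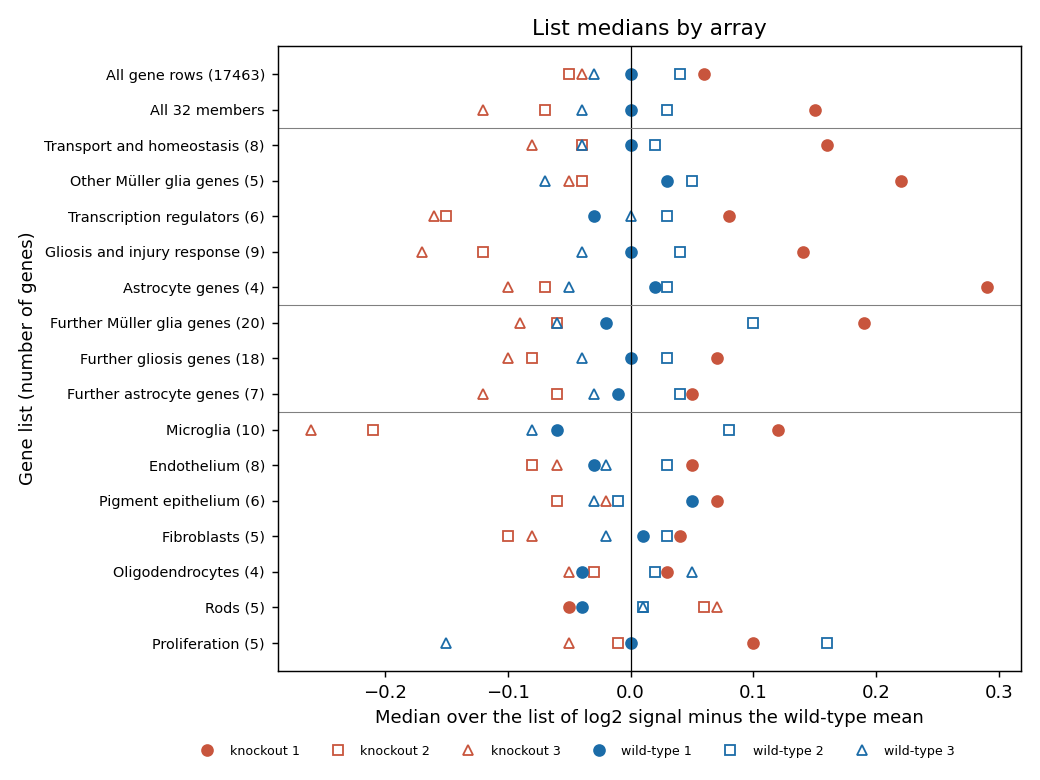
Median over each gene list of the log2 signal minus the wild-type mean, for each array, with the number of genes in brackets. Filled red circles, for knockout 1, lie to the right in the glial lists, at 0.29 in the astrocyte genes. They lie at 0.05 in the further astrocyte genes and at -0.05, to the left, in the rods. Squares and triangles of knockout 2 and knockout 3 lie left of 0 in every list but the rods.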

How the data were processed

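Affymetrix Expression Console, PLIER (which turns probe signals into 1 value per cluster) and genome build mm8 are named, without versions, roles or order, per the submitters' processing notes. The deposited values are taken as log2 signals from their range; what normalization, background correction or added constant was applied is not given in the sources used here. The medians of the deposited columns lay between 4.97 and 5.07, so the values were quantile normalized. Of 100843 clusters, 75632 had a mean at or above the 25th percentile (3.70) and were kept.

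Symbols came from the platform annotation (22608 clusters with 1 symbol, 1462 with several, 76773 unnamed here). By gene identifier, 22101 were updated to the symbols of RefSeq on GRCm38.p6, and 507 kept their name. Each gene took its brightest cluster by the mean of all 6 columns. Promoters were matched by symbol, for 22 of the 32 genes, taking the first listed and none on chr18.

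Knockout was compared with wild-type in R 4.3.3 with the moderated test of limma 3.58.1 (lmFit, eBayes). It was two-sided, adjusted by Benjamini-Hochberg across every kept cluster, at a threshold of 0.05. The fit was also run on simulated data with independent noise in each cluster and no shift of a whole array. That run checked only that an added change came back at its size, not the error rate or power in these data. Differences are given with moderated standard errors (SE) and 95% intervals; 3 arrays per group leave 4 residual degrees of freedom, and for arrays their number limits the precision. Members, lists and role groups were chosen with earlier results of these data known. All 38 genes were named; values per array were given for the 2 of smallest p and the 2 of highest mean in each of the 5 role lists, for those whose groups do not overlap and for the 6 of largest residual SD, and of other lists up to 4 genes of smallest p were named. Alternatives were other scalings, filters, variance models, array weights, a replicate block, each array left out, 1 row per gene, and averaging the clusters of each gene. Figures used matplotlib 3.10.9 (Python 3.11.15).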

Additional observations from a re-analysis of the deposited data

How the results depend on the processing

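No member and no cluster was called under any alternative run, with 0 in each; the smallest limma adjusted p of any cluster ran from 0.0806, without wild-type 3, to 0.797, without knockout 3. The difference over members had a median of -0.08 with array weights, where knockout 1 had a weight of 0.39 against 0.635 to 1.86 for the others, and of -0.10 to 0.03 with an array left out; the lowest was without knockout 1 and the highest without knockout 3. Genes without overlap numbered 17 without knockout 1, beside 32.9% of all genes lower and 2.67% higher. They numbered 2 or 3 with any other array left out, where the share over all genes was not taken. Each is a comparison of fewer samples, in which groups overlap less readily. The level of knockout 1 over the members was 0.21 after median centring and 0.11 to 0.17 with an array left out, lowest without wild-type 3. Where not shown by these values, the cause was not tested.

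Single genes near 0 changed sign. As deposited Dkk3, S100b, Serpina3n and Slc6a6 stood at 0.01 and Glul and Vim at 0.02; after median centring Dkk3, S100b, Serpina3n and Slc6a6 stood at 0.01, Glul at 0.02 and Vim at 0.03. With the mean of a gene's clusters Car14 stood at -0.06, Cebpd at 0.05, Glul at 0.10 and Nfib at 0.03. With array weights Abca8a stood at -0.12, Aldh1l1 at -0.04, Aqp4 at -0.17, Car14 at -0.04, Car2 at -0.01, Clu at -0.06, Gfap at -0.01, Gpr37 at -0.04, Id3 at -0.04 (0.00 with equal weights), Pdgfra at -0.03 and Rlbp1 at -0.05. With each array left out the ranges that crossed 0 were -0.20 to 0.25 for Abca8a, -0.09 to 0.17 for Aldh1l1, -0.19 to 0.14 for Aqp4, -0.03 to 0.20 for Car14, -0.03 to 0.07 for Car2, -0.13 to 0.04 for Cd44, -0.28 to 0.09 for Cebpd, -0.07 to 0.13 for Clu, -0.10 to 0.04 for Dkk3, -0.03 to 0.15 for Gfap, -0.05 to 0.06 for Gpr37, -0.04 to 0.04 for Id3, -0.04 to 0.01 for Lcn2, -0.04 to 0.23 for Pdgfra, -0.06 to 0.07 for Rlbp1, -0.10 to 0.03 for S100b, -0.15 to 0.09 for Serpina3n, -0.20 to 0.04 for Timp1 and -0.08 to 0.04 for Vim; those of Glul and Nfia reached 0.00.

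Deviations from the group mean correlated at 0.13, -0.15 and 0.21 between same-numbered samples. Knockout 1 correlated best with wild-type 2, and knockout 2 and knockout 3 with wild-type 3. With 3 arrays per group these values cannot tell whether the sample numbers pair the samples. With the replicate block 0 clusters and 0 members were called (limma adjusted p = 0.904 at the smallest member). The block is balanced between the genotypes, so it leaves each difference and the median of -0.01 as they were. Other filters (31 members with the filter at the 50th percentile), an intensity trend, robust variances and 1 row per gene also leave each difference unchanged. They alter only the rows fitted or the standard errors, so that no sign changed under these settings is not a check. Precision was limited by 3 arrays per group and an unknown background.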
